A study of Mus musculus with 265 samples.

Results

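Oxidative phosphorylation (OXPHOS) genes were taken as the protein-coding genes of GENCODE vM21 whose symbol starts with Nduf, Uqcr, Sdh (Sdha to Sdhd), Atp5, or Cox followed by a digit from 4 to 8. A region of accessible chromatin was a member when its midpoint lay within 1000 bp of the start site of such a gene. Of 20103 regions on mm10, 8786 were promoter regions of any protein-coding gene by the same distance, and 83 of these were members. These 83 regions belonged to 75 of the 93 annotated symbols, and 8 genes had 2 regions each. Complex I (NADH dehydrogenase) had 33 regions, complex I assembly factors 11, complex II (succinate dehydrogenase) 4, complex III (cytochrome bc1) 9, complex IV (cytochrome c oxidase) 11, and complex V (ATP synthase) 15. The rule used names and positions only, and no measured value.

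The respiratory chain in the inner mitochondrial membrane passes electrons from NADH and succinate to oxygen while complexes I, III and IV pump protons, and complex V uses the resulting gradient to make ATP. Most subunits are coded in the nucleus, in genes spread over nearly all chromosomes, and must be made in matching amounts with the few subunits coded in mitochondrial DNA. Nuclear respiratory factor 1 (Nrf1), the ETS-family factor GABP, YY1 and the receptor Esrra with its Ppargc1 coactivators are known regulators of these promoters in many tissues.

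The cells were of the mouse pre-B cell line B3, all carrying an inducible ERt2-Ikaros protein, which moves to the nucleus when 4-hydroxytamoxifen is added; Ikaros is a zinc-finger factor of lymphocyte development. The 0-hour cells carried the same ERt2-Ikaros and had no drug, and the 24-hour cells had 20 mM of 4-hydroxytamoxifen with a further dose at about 12 hours. No arm of drug-treated cells without ERt2-Ikaros was used, so drug and Ikaros cannot be told apart, and all cells are of 1 cell line. Single-cell ATAC-seq, in which Tn5 transposase cuts and tags open DNA, was run on the Fluidigm C1 in runs 1 and 2 at 0 hours (48 and 47 cells) and runs 3 and 4 at 24 hours (60 and 72 cells). No run held both time-points, and neither the labels nor the methods say whether the runs came from separate cultures, so p-values measure only the spread between these runs. Values for the 4 runs are given below in this order, as counts summed over the cells of a run or as TMM-normalised CPM (counts scaled to a common library size).

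The runs summed to between 92639 and 164357 counts, and a cell to between 334 and 7940 counts. Promoter regions held 51.0% and 48.5% of the counts at 0 hours and 58.3% and 66.4% at 24 hours, so counts and medians of members are read against the other 8703 promoter regions. Of 13 pre-B cell marker genes, 8 had a promoter region, namely Blnk, Cd79a, Cd79b, Ebf1, Igll1, Il7r, Pax5 and Vpreb1, whereas Ikzf1, Rag1, Rag2 and Vpreb3 were among those with none. Their 9 regions had a median log2 change of -0.25 (24 hours minus 0 hours), with 3 above 0. Without overlap 4 were higher at 0 hours and 1 (11.1%) at 24 hours, where 13.2% and 28% of other promoter regions were. The 4 included Igll1 (-2.42) and Il7r (-2.69), and the 1 was Ebf1 (1.24). Pax5 had regions on both sides of 0, at -1.74 and 1.23. T cell and erythroid markers had 0 regions, and of 4 myeloid markers Lyz2 alone had one, with signal in 6 cells.

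Member regions were short, with a median width of 148 bp, and 59 of them (71.1%) had their midpoint within 100 bp of the start site, against 58.7% of the other promoter regions. The start site itself lay inside 53 of the 83 regions, 15 lay over an exon of the gene without its start, and 15 lay outside the gene. The sequences below, from the GRCm38.p6 assembly (mm10), are the exon-free parts of regions that the results return to, each written 5′ to 3′ on the strand of its gene. Capitals mark exact matches, on either strand, to a motif named further on. The regions of complex V at Atp5g1 (chr11:96075710-96075858, minus strand) and Atp5b (chr10:128083077-128083225, plus strand) were open in many cells. The one at Atp5l (chr9:44920937-44921083, minus strand), centred at -268 bp from the start, held exact matches to the Nrf1, ETS, TATA and CCAAT motifs. At Atp5g3 (chr2:73911327-73911403, minus strand) the capitals include the Esrra element.
Atp5g1: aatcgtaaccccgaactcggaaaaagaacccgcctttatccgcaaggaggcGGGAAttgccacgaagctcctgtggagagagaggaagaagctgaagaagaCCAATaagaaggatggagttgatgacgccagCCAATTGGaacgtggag
Atp5b: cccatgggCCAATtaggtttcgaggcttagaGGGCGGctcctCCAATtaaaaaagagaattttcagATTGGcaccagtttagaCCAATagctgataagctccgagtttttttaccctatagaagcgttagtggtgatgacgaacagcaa
Atp5l: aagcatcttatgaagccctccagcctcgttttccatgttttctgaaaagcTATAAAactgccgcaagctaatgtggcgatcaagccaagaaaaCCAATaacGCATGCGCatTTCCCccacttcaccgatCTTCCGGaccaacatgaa
Atp5g3: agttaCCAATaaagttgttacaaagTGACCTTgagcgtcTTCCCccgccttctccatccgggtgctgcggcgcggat

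Further sequences show complex II at Sdhd (chr9:50603813-50603909, minus strand), which it shares with Timm8b, and complex III at Uqcrq (chr11:53430853-53431004, minus strand), which it shares with Gdf9. They also show regions at opposite ends of the list of changes, namely Ndufs5 (chr4:123718203-123718332, minus strand), Ndufv1 (chr19:4012807-4012910, minus strand), Cox5b (chr1:36691390-36691448, plus strand) and Cox7b (chrX:106015598-106015699, plus strand).
Sdhd: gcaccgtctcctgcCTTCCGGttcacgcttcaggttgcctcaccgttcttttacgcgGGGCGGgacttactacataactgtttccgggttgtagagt
Uqcrq: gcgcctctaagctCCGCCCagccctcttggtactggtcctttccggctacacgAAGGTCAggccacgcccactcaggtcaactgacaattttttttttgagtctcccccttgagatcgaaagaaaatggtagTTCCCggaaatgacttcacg
Ndufs5: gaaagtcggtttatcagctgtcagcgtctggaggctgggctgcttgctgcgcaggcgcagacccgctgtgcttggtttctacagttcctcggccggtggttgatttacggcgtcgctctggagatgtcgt
Ndufv1: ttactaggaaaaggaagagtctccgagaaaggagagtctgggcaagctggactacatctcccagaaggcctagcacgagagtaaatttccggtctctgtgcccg
Cox5b: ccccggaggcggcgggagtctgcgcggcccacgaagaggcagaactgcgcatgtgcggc
Cox7b: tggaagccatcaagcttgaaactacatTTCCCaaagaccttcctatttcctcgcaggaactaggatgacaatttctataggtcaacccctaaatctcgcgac

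A member region had signal in a median of 20 of the 227 cells, from 5 to 59, and other promoter regions in a median of 19. No genes of complexes II and III or of the assembly factors lacked a region. Among the 18 genes without one were Ndufa1, Ndufa4l2, Ndufa6, Ndufa9, Ndufb5, Ndufs7 and Ndufs8 in complex I, Cox4i2, Cox6a2, Cox6b2, Cox7a2l, Cox7b2, Cox8b and Cox8c in complex IV, and Atp5d, Atp5f1 and Atp5g2 in complex V. Of 8 subunits known to be restricted to certain tissues, such as the testis form Cox6b2 and the muscle form Cox6a2, 7 were thus without a region and Cox7a1, a heart and muscle form, had one. Its CPM was 36.4, 94.0, 72.8 and 14.7, with overlapping time-points. A gene without a region here is one with no region in this table, and its accessibility was not measured.

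Sharing of start sites was common. Of the 83 regions, 35 (42.2%) also lay within 1000 bp of the start of a protein-coding gene outside the list, against 13.6% of other promoter regions that lay near more than 1 gene, and for 34 of them (41.0% against 12.4%) the neighbour was on the opposite strand. Examples are Ndufaf2 with Ercc8, Ndufa2 with Ik, Ndufaf8 with Tepsin, and Atp5j with Gabpa, which codes for the DNA-binding subunit of GABP. Signal in such a region cannot be assigned to either gene. It was present in 17 of 33 regions of complex I, in 3 of 4 of complex II, and in only 1 of 11 of complex IV.

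Summed over all members, the signal was 724, 392, 665 and 969 counts, or 0.441%, 0.423%, 0.542% and 0.679% of all counts in regions. Against promoter counts alone it was 0.863%, 0.872%, 0.931% and 1.02%, a mean of 0.868% ± 0.00615 (SD, n = 2 runs) at 0 hours and 0.977% ± 0.0659 (SD, n = 2 runs) at 24 hours. The values at 24 hours were both higher than those at 0 hours. The ratio of the means was 1.13 over promoter counts and 1.41 over all counts. Run 4 was the highest, and without it the ratio over promoter counts was 1.07. An exact two-sided permutation test of 2 runs against 2 cannot give a p below 0.333, so the ratio was not tested further. Per cell, the median number of member regions with signal was 8, 5, 6.5 and 8. With every cell reduced at random to 837 counts, and 23 cells below that number dropped, it was 2.5, 3, 4 and 5.

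By complex, the share of promoter counts separated the time-points in complexes II and V. In complex II it was 0.0429%, 0.0467%, 0.0644% and 0.0602%, a ratio of 1.39 from only 160 counts, and 1.04 at Sdhb, the only one of its 4 regions not shared with another gene. In complex V it was 0.154%, 0.171%, 0.190% and 0.202%, a ratio of 1.21. Those of the remaining classes overlapped between time-points. Complex I, the class with the most signal, gave 0.320%, 0.271%, 0.319% and 0.380%, and its run 1 and run 3 were nearly level. The ratio was 1.18 for complex I, 1.02 for complex III, 1.07 for complex IV and 0.954 for the assembly factors. With 1 run left out, the last 3 lay on either side of 1. They were 0.898 to 1.14, 0.916 to 1.30 and 0.871 to 1.04.

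**Figure D1:**
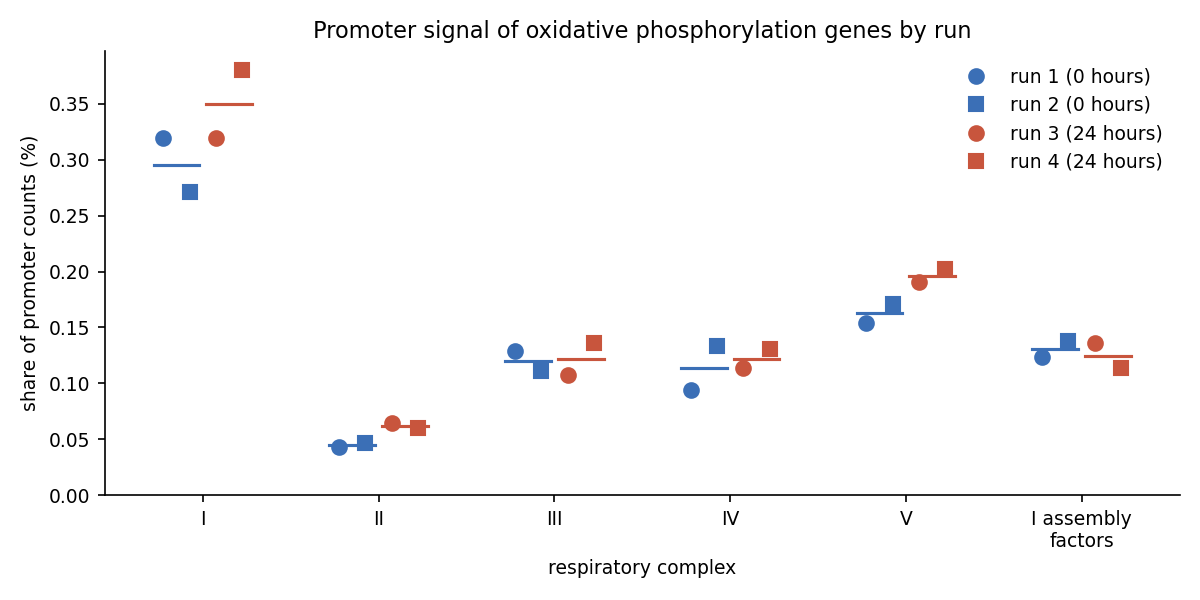
Share of all promoter counts (%, vertical axis) held by the regions of each respiratory complex, with 1 point per run and a line at the mean of the 2 runs of a time-point. Complexes II and V have both 24-hour runs above both 0-hour runs, and the other classes overlap.

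Region by region, no member passed the test (edgeR quasi-likelihood test, Benjamini-Hochberg adjusted over all 20103 regions, threshold 0.05), where 11 regions in all did, or 0.0547%. The smallest adjusted p of a member was 0.0563, at Cox4i1. At an unadjusted p under 0.05, 11 members were higher at 24 hours (13.3%, where 7.63% of other promoter regions and 5.11% of all regions were). In the opposite direction 1 was (1.20%, where 1.92% of other promoter regions and 7% of all regions were). DESeq2 called 0 members at an adjusted p under 0.05 as well, and 6 at an unadjusted p under 0.05 in either direction, where 4.09% of other promoter regions and 5.4% of all regions were. With a biological coefficient of variation of 0.419 between runs and at most 35 counts per member in a run, the absence of a call does not show that a region was unchanged. The number of members at an unadjusted p under 0.05 in either direction was 12 (14.5%, against 9.55% of other promoter regions) and depended on the setting. It was 3 (3.61% against 4.46%) with the number of cells as the scale, 3 (3.66% against 4.28%) with thinned cells, 5 (6.02% against 6.40%) with a replicate block, 4 (4.82% against 4.14%) without run 2 and 18 (21.7% against 17.4%) without run 3. In the first 3 of these the share of members was slightly below that of other promoter regions.

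The runs of the time-points overlapped in 47 members. In 28 (33.7%) both 24-hour runs were above both 0-hour runs, against 28% of other promoter regions and 19.3% of all regions. In 8 (9.64%) both 0-hour runs were above, against 13.2% and 25.7%. The median log2 change (24 hours minus 0 hours) of the 83 members was 0.46, that of other promoter regions 0.33, and that of all regions -0.06. The members' median was 0.76 without run 1 and 0.27 without run 4. Above 0 lay 60 members (72.3%), against 64.5% of other promoter regions. With the number of cells in place of sequencing depth as the scale, the median of all regions was -0.51, that of other promoter regions -0.15 and that of members 0.04. On that scale 10 members (12.0%) were higher without overlap, against 12.2% of other promoter regions and 8.94% of all regions, and 13 (15.7%) were lower, against 20.3% and 32.8%. In regions with signal in at least 10% of cells, 7 of 37 members (18.9%) were higher, against 24.3% of other promoter regions. In that set 3 (8.11%) were lower, against 15.4%. The direction of these counts thus depends on the scale, and whether more members than other promoter regions were higher depends on the filter.

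**Figure D2:**
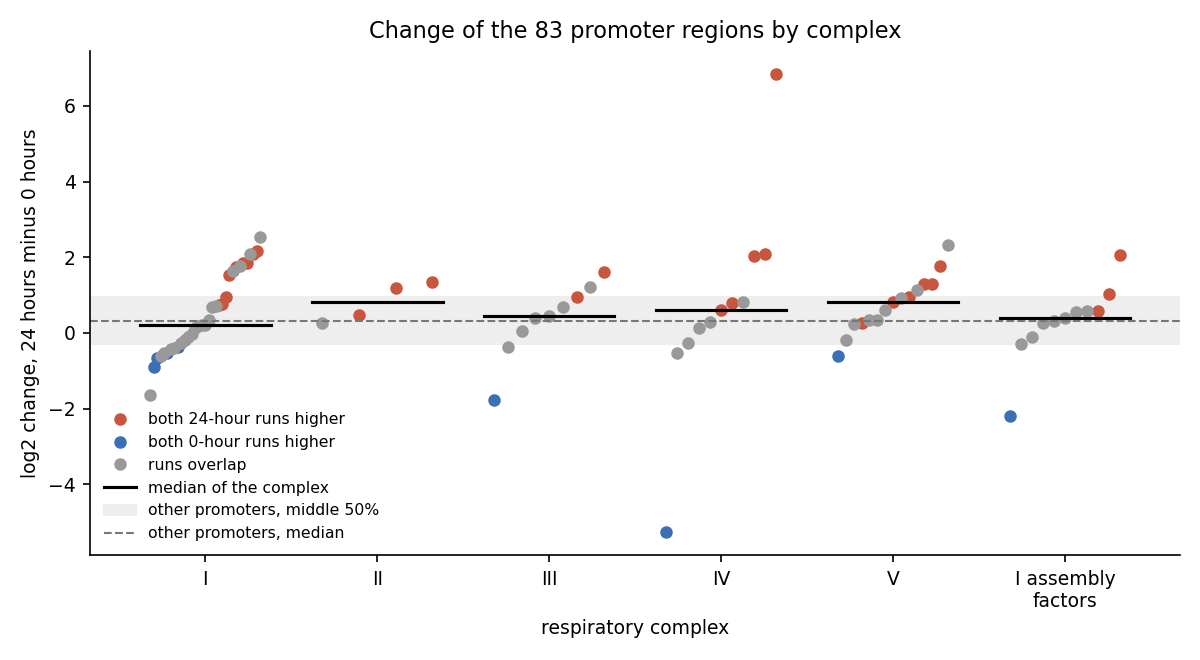
Log2 change of each of the 83 member regions (vertical axis, 24 hours minus 0 hours) by complex, coloured by whether the runs of the time-points overlap. Black lines are medians per class, from 0.21 in complex I to 0.83 in complex V, and the band holds the middle 50% of the other promoter regions.

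Complex I holds the NADH-binding arm and the proton-pumping arm. Its 33 regions had a median log2 change of 0.21, and 9 (27.3%) were higher at 24 hours and 4 (12.1%) at 0 hours without overlap, near the 28% and 13.2% of other promoter regions. At an unadjusted p under 0.05 by edgeR, 6 (18.2%) were higher at 24 hours and 0 at 0 hours, against 7.63% and 1.92%. Such counts over all members depended on the setting, as given above. Ndufs5, an accessory subunit, had 48.5, 10.4, 80.9 and 220 CPM in a region on chromosome 4 from 123718180 to 123718332. All its 24-hour values lay above its 0-hour values, with a log2 difference of 2.18 ± 0.73 (SE, n = 2 runs each, edgeR adjusted p = 0.210). Ndufv1, the core flavoprotein that accepts electrons from NADH, had 18.2, 62.7, 113 and 205 CPM. Its log2 difference was 2.10 ± 0.70 (SE, edgeR adjusted p = 0.210), again without overlap. Run 4 was the highest in both. Leaving out 1 run moved the log2 difference of Ndufs5 to between 1.27 (without run 4) and 3.75 (without run 1), and that of Ndufv1 to between 1.36 (without run 1) and 3.07 (without run 2). Without run 3, a fit that called 3.97% of all regions, both passed the test, at adjusted p = 0.00868 for Ndufs5 and 0.0171 for Ndufv1 by edgeR, as did Cox4i1, Ndufa10 and Ndufa13, a set named here after its values were seen; in that fit run 4 alone stands for 24 hours and is assumed to vary like the 0-hour runs. Over all alternatives the adjusted p ranged from 0.00868 to 0.880 for Ndufs5 and from 0.0171 to 0.868 for Ndufv1. The region of Ndufa10 had 24.3, 10.4, 8.09 and 213 CPM, so run 4 alone was high there. The region of Ndufa13 at -720 bp, outside the gene, had 60.6, 20.9, 56.6 and 220 CPM, also high in run 4 alone. Another region of Ndufa13, at 888.5 bp, overlapped between time-points at a log2 difference of 0.20.

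In the complex I region with signal in most cells, at Ndufa2 and Ik (37 cells), the CPM was 84.9, 146, 105 and 139 and the time-points overlapped. The same held for Ndufv3, an accessory subunit next to Ndufv1 in the complex, with 103, 62.7, 97.0 and 117 CPM. On the side of the 0-hour runs stood Ndufa4 and Ndufa11. For Ndufa4, a protein named for complex I but now placed with complex IV, the values were 24.3, 52.2, 24.3 and 14.7 CPM, so that runs 1 and 3 were level. Ndufa11, an accessory subunit of the membrane arm, had 30.3, 31.3, 8.09 and 29.3 CPM in a region with 2 copies in the genome, and run 3 alone was low. Their log2 differences of -0.89 ± 1.19 and -0.67 ± 1.23 (SE, n = 2 runs each) were smaller than their errors, and ranged from -1.37 to -0.31 and from -1.81 to -0.07 with 1 run left out.

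Complex I assembly factors build the complex without staying in it. Their 11 regions had a median log2 change of 0.39, with 3 (27.3%) higher at 24 hours and 1 (9.09%) at 0 hours without overlap, also near those of other promoter regions. Ndufaf2, shared with the DNA repair gene Ercc8, was open in 54 cells, with 103, 198, 226 and 213 CPM, where run 1 was the low one. Ndufaf8 had 115, 104, 121 and 58.7 CPM, and Ndufaf3 84.9, 52.2, 64.7 and 110 CPM; both overlapped. Ndufaf4 had 12.1, 20.9, 56.6 and 80.7 CPM in a region of only 17 bp in an exon, with a log2 difference of 2.07 ± 1.03 (SE, edgeR adjusted p = 0.408). Its second region, centred at -46.5 bp from the start, overlapped between time-points at a log2 difference of 0.39. Ndufaf6 likewise had a pair of regions, with log2 differences on opposite sides of 0: the one centred at -888 bp had 60.6, 52.2, 24.3 and 0 CPM (log2 difference -2.19 ± 1.17, SE; -5.94 without run 3 and -1.20 without run 4), and the one at the start site gave a log2 difference of 0.58. The upstream region is near the outer limit of the rule. Just outside it lay a region at 1173 bp from the start of Cox6a1 (log2 change -2.61, 5 cells) and one at -1212.5 bp from that of Ndufaf3 (3.54, 16 cells).

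Complex II oxidises succinate to fumarate and so also belongs to the citric acid cycle. Its 4 regions all lay above 0, with a median log2 change of 0.82, and 3 of them (75%) were higher at 24 hours without overlap; of other promoter regions 64.5% lay above 0 and 28% were higher. A class of 4 regions gives little weight to such shares. Sdhc, a membrane anchor subunit, had 66.7, 41.8, 72.8 and 213 CPM and a log2 difference of 1.34 ± 0.66 (SE, edgeR adjusted p = 0.397), which was 0.37 without run 4. Sdhd, the other anchor, had 48.5, 20.9, 97.0 and 73.3 CPM, 1.19 ± 0.82 (SE) on the log2 scale. This was 1.99 without run 1, 0.80 without run 2 and 0.08 with thinned cells. In Sdhb, the iron-sulfur subunit, the CPM was 60.6, 94.0, 113 and 95.3, so runs 2 and 4 were nearly level. Sdha, the catalytic flavoprotein, had 42.5, 62.7, 88.9 and 36.7 CPM, with overlap. Sdha and Sdhb, which carry the catalytic part, had the smallest log2 differences of the 4, at 0.28 and 0.46.

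Complex III passes electrons from ubiquinol to cytochrome c, and its 9 regions had a median log2 change of 0.45 with 2 (22.2%) higher and 1 (11.1%) lower at 24 hours without overlap, both at or below the 28% and 13.2% of other promoter regions. Uqcrq, a small subunit, had 78.8, 188, 80.9 and 117 CPM, and Uqcrh, the hinge protein, had 91.0, 83.6, 64.7 and 117 CPM. Neither separated the time-points. Uqcrfs1, the Rieske iron-sulfur protein, had 115, 0, 88.9 and 213 CPM, so that the 24-hour runs overlapped a widely spaced pair of 0-hour runs. Uqcrb, a small subunit, was the member of the complex with higher 0-hour runs, at 72.8, 62.7, 32.3 and 7.33 CPM. Its log2 difference was -1.76 ± 0.99 (SE, n = 2 runs each, edgeR adjusted p = 0.493), and -3.07 without run 3 and -1.06 without run 4.

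Complex IV reduces oxygen to water. It held both the largest positive and the largest negative log2 change among members, in regions with 0 counts at one time-point. Every deposited region had signal in at least 5 cells, so such a region was included only through its cells at the other time-point. Cox4i1, the ubiquitous form of the largest nuclear-coded subunit of complex IV, had 0, 0, 8 and 21 counts (0, 0, 64.7 and 154 CPM). The region spans chromosome 8 from 120668327 to 120668390 (mm10), 64 bp in an exon of Cox4i1 and of its opposite-strand neighbour Emc8. Signal was present in 0 of 95 cells at 0 hours, which allows a share of up to 3.16% by the limit of 3 counts (3.81% as the exact upper limit), and in 18 of 132 at 24 hours (13.6%, 95% exact Clopper-Pearson interval 8.29 to 20.7%). These limits cover counting error only. Taking 3 counts over both 0-hour runs as the floor, signal was 9.69-fold higher at 24 hours. This is not a lower bound, since the error of the 29 counts at 24 hours is left out. The fitted log2 difference of 6.85 depends on a prior count. Its adjusted p of 0.0563 by edgeR became 0.0221 when scaled by run totals rather than by TMM (0.164% of all regions called) and 0.000288 without run 3, and over all alternatives it ranged from 0.000288 to 0.736, the highest by DESeq2. The table held no other region within 1000 bp of these starts.

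Cox7b, a small subunit coded on the X chromosome, had the reverse pattern, with 8, 2, 0 and 0 counts (48.5, 20.9, 0 and 0 CPM). Signal was in 7 of 95 cells at 0 hours and 0 of 132 at 24 hours, which allows up to 2.27% by the limit of 3 counts (2.76% as the exact upper limit). The 0-hour signal stood 3.33-fold above a floor of 3 counts at 24 hours (edgeR adjusted p = 0.291). This is not a lower bound, since the error of the 10 counts at 0 hours is left out. The 95% exact interval at 0 hours began at 3.01% of cells, close to the upper limit at 24 hours. This region, too, was included only through its cells at the other time-point. Cox5b had 36.4, 20.9, 113 and 147 CPM, a log2 difference of 2.08 ± 0.75 (SE, edgeR adjusted p = 0.241), with all 24-hour values above all 0-hour values. In contrast, Cox7c, open in 54 cells, had 139, 209, 137 and 147 CPM, and Cox8a 78.8, 136, 72.8 and 154 CPM, and both overlapped. Of the 11 regions of the complex, 5 (45.5%) were higher and 1 (9.09%) lower at 24 hours without overlap, against 28% and 13.2% of other promoter regions, with a median log2 change of 0.60 against 0.33.

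Complex V had the highest median log2 change of the classes, 0.83, and 13 of its 15 regions (86.7%) lay above 0, against 64.5% of other promoter regions. In 6 (40%, against 28%) both 24-hour runs were higher and in 1 (6.67%, against 13.2%), shared by Atp5j and Gabpa, both 0-hour runs were. Atp5g1, one of the genes for the ring-forming c subunit, was the member with signal in most cells, 59 of 227. It had 78.8, 115, 210 and 257 CPM, with signal in 18.9% of the cells at 0 hours and 31.1% at 24 hours, and a log2 difference of 1.29 ± 0.53 (SE, n = 2 runs each, edgeR adjusted p = 0.306). Atp5s had 72.8, 115, 202 and 154 CPM, also without overlap, at 0.95 ± 0.56 (SE). Atp5b, the catalytic beta subunit, had 121, 104, 121 and 227 CPM, where run 3 equalled run 1 and only run 4 was higher.

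**Figure D3:**
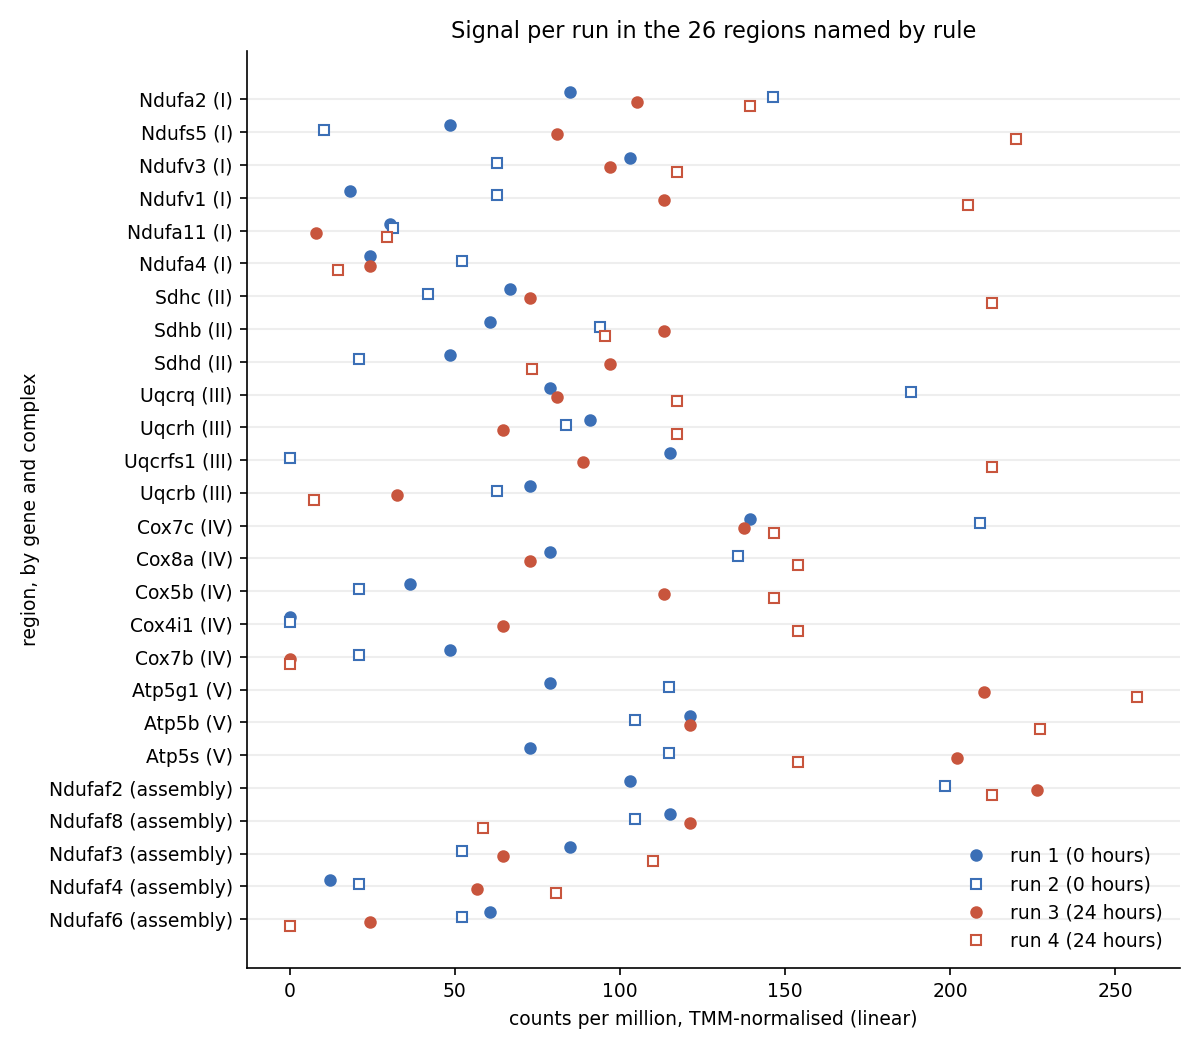
Signal in CPM (linear horizontal axis) of the 26 regions named by rule, 1 symbol per run, ordered by complex. Atp5g1, Cox5b, Ndufs5 and Ndufv1 have both 24-hour runs to the right of both 0-hour runs, Cox4i1 lies at 0 in both 0-hour runs and Cox7b at 0 in both 24-hour runs.

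Exact motif matches were counted on both strands within 200 bp centred on each region. Known regulators of these promoters were represented by the letters GCGCATGC for Nrf1, by CCGGAAG for the ETS family of GABP, by AAGATGGC for the factor YY1, and by AAGGTCA for the receptor Esrra. General promoter elements searched were GGGCGG as the GC box bound by Sp1, CACGTG as the E-box of the Myc family, TGACGTCA as the CRE bound by Creb1, CCAAT as the box of that name, and TATAAA as the box near the start of some genes. The core of the Ikaros motif was searched as GGGAA. None of these strings contains another, though matches may overlap by a few bases. Members held Nrf1 in 15.7% of regions against 4.83% of other promoter regions, YY1 in 13.3% against 4.13%, and the Esrra element in 9.64% against 1.23%. Within 100 bp the shares were lower in both sets, at 7.23% against 2.93% for Nrf1, 6.02% against 1.63% for YY1 and 4.82% against 0.494% for the Esrra element. The GC box was less frequent, 47.0% against 62.9%, with a median GC content of 62.5% against 65.5%. ETS was found in 24.1% against 19.2%, a difference that did not hold in the regions at their deposited width (14.5% against 15.3%), the Ikaros core in 54.2% against 47.3%, and the CCAAT box in 27.7% against 34.2%. These shares are a description of letters and do not show that a factor was bound.

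**Figure D4:**
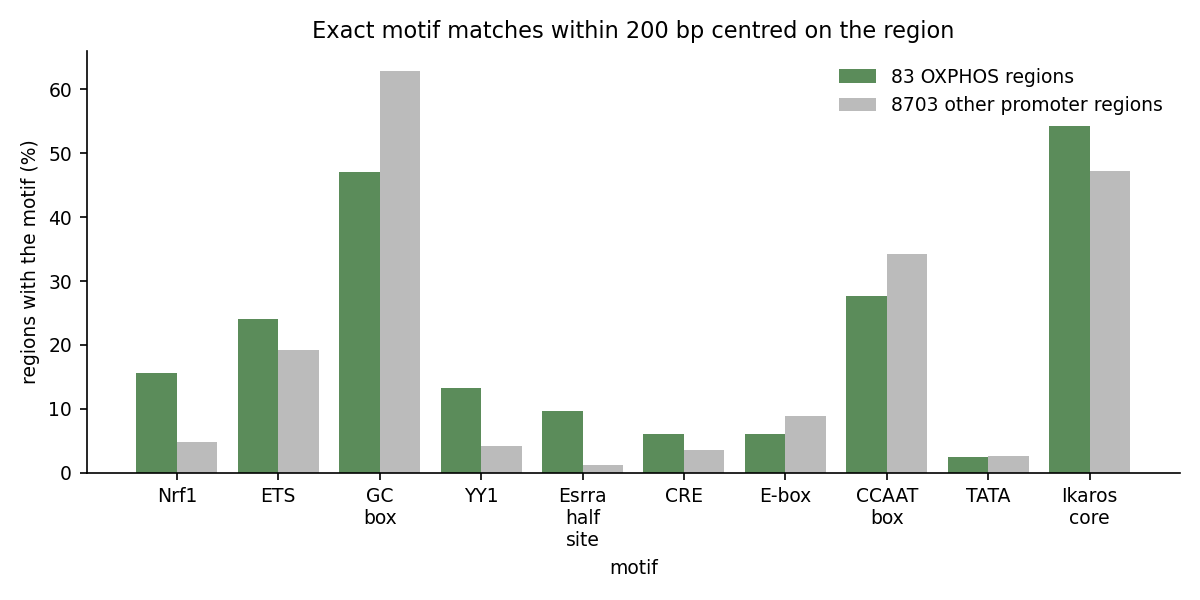
Share of regions (%, vertical axis from 0) with an exact match to each motif, for the 83 member regions and the 8703 other promoter regions. Nrf1, YY1 and the Esrra element stand higher in members and the GC box lower.

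The Nrf1 motif was found in 13 member regions of 12 genes, namely Atp5j, Atp5k, Atp5l, Cox6a1, Cox6c, Ndufa13, Ndufa8, Ndufaf4 (both regions), Ndufaf5, Sdhb, Uqcr11 and Uqcrc1. All 13 had a log2 change above 0, with a median of 1.28, and in 7 (53.8%) both 24-hour runs were higher and in 0 both 0-hour runs. The 70 members without the motif had a median of 0.32, with 21 higher and 8 lower without overlap. Among other promoter regions, the 420 with the motif had a median of 0.71, with 75.5% of them above 0, 33.3% higher and 9.05% lower without overlap; over all other promoter regions the median was 0.33 and 64.5% lay above 0. None of the 13 passed the adjusted test by edgeR, and 2 (15.4%) were higher at an unadjusted p under 0.05, against 17.1% of the other promoter regions with the motif. This comparison was chosen after the values were seen and carries no test. Without run 4 the median was 0.53 and 9 of the 13 lay above 0, and with cells as the scale it was 0.79, with 13 of 13 above 0. At Atp5l, whose sequence is printed above, the CPM was 12.1, 0, 40.4 and 14.7, and at Cox6c 6.06, 10.4, 40.4 and 29.3, so several of these regions rest on few counts. Other motifs gave other medians, with regions that often hold more than 1 of them. The 5 regions with the E-box had a median of 1.85, with 4 above 0 and 3 higher at an unadjusted p under 0.05, where other promoter regions with it had 0.40, 69.0% and 8.35%. The 2 with TATA had a median of 1.82, against 0.47. The 20 with ETS had a median of 0.78, with 19 above 0, 10 higher and 1 lower without overlap, against 0.40, 69.2% above 0, 29.6% higher and 10.4% lower for other promoter regions with ETS. The median was 0.46 for the 5 with CRE and the 45 with the Ikaros core, 0.51 for the 8 with the Esrra element, 0.35 for the 39 with the GC box, 0.33 for the 23 with CCAAT and 0.24 for the 11 with YY1. Nothing here shows the higher median to be particular to Nrf1.

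**Figure D5:**
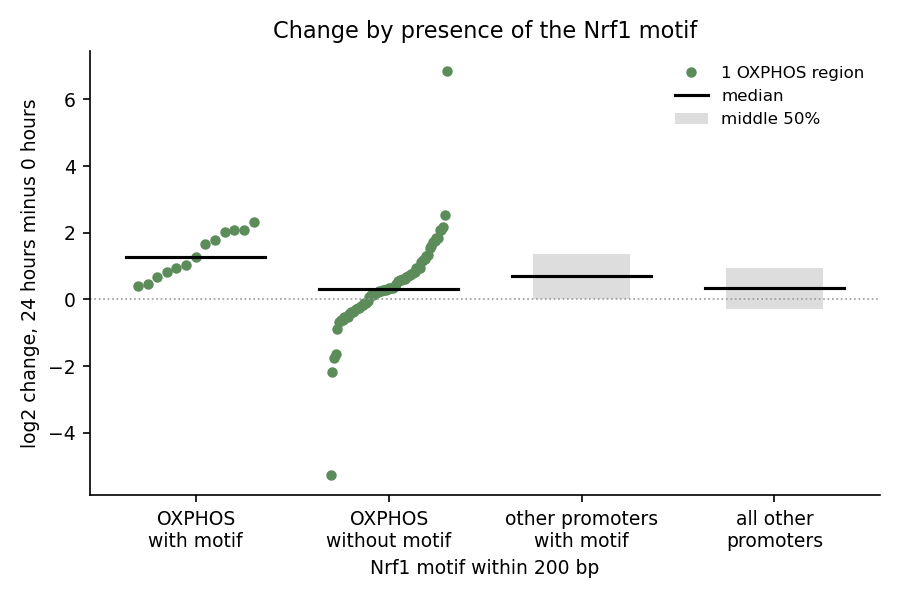
Log2 change (vertical axis, 24 hours minus 0 hours) of the 13 member regions with the Nrf1 motif and the 70 without it, with the median and middle 50% of other promoter regions beside them. All 13 points with the motif lie above 0, around a median of 1.28.

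Sequence copies in the genome were rare among members. Of 81 regions long enough to be searched, 2, at Ndufa11 and Ndufb11, had more than 1 copy (2.47%, against 2.05% of other promoter regions), and 0 matched mitochondrial DNA. Partial matches elsewhere were more frequent, in 9 members (10.8%) against 2.80%, among them Uqcrb, Uqcr10, Ndufa7 and Cox6c. Reads in such regions are uncertain where mapping could split them between copies.

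Genes that act with the respiratory chain were taken from lists of related genes. No region of these lists passed the adjusted test by edgeR. Of 13 regions at 11 known regulators of OXPHOS genes, 12 had a log2 change above 0 (92.3%, against 64.5% of other promoter regions), 4 (30.8%) were higher and 1 lower at 24 hours without overlap, near the 28% and 13.2% of other promoter regions, and the median was 0.60, against 0.33. Esrra, the receptor whose element is counted above, had 146, 104, 251 and 249 CPM, and Nrf1 itself had 36.4, 20.9, 80.9 and 95.3 CPM. In both the time-points did not overlap, with log2 differences of 0.97 ± 0.50 and 1.53 ± 0.84 (SE). The exception below 0 was the region of Gabpa, shared with Atp5j and counted in both lists, with 103, 146, 56.6 and 103 CPM and a log2 difference of -0.61.

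Citric acid cycle genes had 14 regions with a median of 0.55, 7 (50%) higher and 1 lower at 24 hours without overlap, against 28% and 13.2% of other promoter regions, and 8 (57.1%) above 0, against 64.5%. Dld, the lipoamide dehydrogenase subunit of several dehydrogenase complexes, had 30.3, 10.4, 80.9 and 227 CPM, a log2 difference of 2.75 ± 0.77 (SE, edgeR adjusted p = 0.146). Assembly factors outside the rule had 33 regions with a median of 0.32, of which 9 were higher and 3 lower without overlap and 23 (69.7%) lay above 0. The 15 regions of electron carriers and ubiquinone synthesis had a median of 0.22, with 3 higher and 2 lower and 9 (60%) above 0. These medians stand beside 0.33 over other promoter regions.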

How the data were processed

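Single-cell ATAC-seq was analysed. The authors mapped reads to mm10 with Bowtie2, removed duplicates with Picard, used HOMER for peaks of the bulk replicates, and deposited whole-number counts per region and cell, without normalization. No value is above 2, and no source used here says whether larger ones were capped. All 227 columns were used (48, 47, 60 and 72 per run, where the labels list 48, 63, 75 and 73 cells); the number of regions and the split of cells by time differ from those stated in the paper, for reasons not given in the sources used here, 0 per-sample columns were left out, and bulk samples and single-cell RNA were not used here. Counts were summed per C1 run and tested with edgeR 4.0.16 (R 4.3.3; quasi-likelihood, TMM, Benjamini-Hochberg over 20103 regions). The authors kept regions detected in at least 5 cells. No further filter was applied in the main fit, so all 83 members were tested. DESeq2 1.42.0 was an alternative. Scripts used Python 3.11.15, NumPy 2.4.6, pandas 2.3.3, SciPy 1.17.1 and pysam 0.24.0. The cells of a run are not replicates. No doublet caller was run, since each capture site was inspected.

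Copies were searched with BLAST 2.17.0 at 90% identity over 80% of a region. Regions named were the 3 with signal in most cells per complex, the 5 most changed (or fewer) each way among those without overlap, and any past the threshold. Members, lists and rules were chosen with earlier results of these data known. A log2 change is edgeR's coefficient, positive where 24 hours is higher, and its SE is the size of the coefficient divided by the square root of F. Alternatives were other scales, denominators, filters, thinning to 837 counts, start sites, windows, a replicate block and each run left out. Counting intervals and floors of 3 counts cover counting error only. Sequences are from GRCm38.p6, the same build as the regions, and region coordinates are as deposited.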

Additional observations from a re-analysis of the deposited data

How the results depend on the processing

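No member region was called in 6 of the alternatives to the scale, filter, cells, tool and block; scaled by run totals 1 was, as were 33 of all 20103 regions (0.164%). With the number of cells as the scale, 10 members (12.0%, against 12.2% of other promoter regions) were higher and 13 (15.7% against 20.3%) lower at 24 hours without overlap and the median log2 change was 0.045, and the ratio of the summed share per cell was 1.05 (1.08 in complex I, 1.30 in II, 0.928 in III, 1.05 in IV, 1.14 in V and 0.894 in the assembly factors). In regions with signal in at least 10% of cells, which kept 37 members, 7 (18.9% against 24.3%) were higher and 3 (8.11% against 15.4%) lower. Leaving out regions shared with another gene, which kept 48, 16 (33.3% against 27.9%) were higher and 3 (6.25% against 13.3%) lower. Thinned cells gave a median of 0.79, a share ratio of 1.30, 1.55 in complex I and 1.15 in the assembly factors. Over all counts in regions the ratio was 1.41 in all, 1.49 in complex I, 1.74 in II, 1.28 in III, 1.36 in IV, 1.52 in V and 1.19 in the assembly factors. Without shared regions it was 1.22 in all, 1.42 in complex I, 1.04 in II (Sdhb alone), 1.47 in III, 0.927 in IV, 1.39 in V and 0.956 in the assembly factors, and within 500 bp it was 1.30 in V. The cause of these differences was not tested, except that fewer regions or another denominator enter by construction.

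With each run left out in turn, 0 to 5 members were called (5 without run 3, where 797 of 20098 regions or 3.97% were), 35 to 49 were higher (42.2% to 59.0%, against 39.8% to 49.9% of other promoter regions) and 16 to 18 lower (19.3% to 21.7%, against 22.8% to 27.5%) without overlap (more by construction, since fewer runs are compared), the median was 0.27 to 0.76 and the share ratio 1.07 to 1.18. Ranges were 1.08 to 1.29 in complex I, 1.33 to 1.45 in II, 0.898 to 1.14 in III, 0.916 to 1.30 in IV, 1.14 to 1.27 in V and 0.871 to 1.04 in the assembly factors, so the direction in III, IV and the assembly factors depends on the run. For members with the Nrf1 motif, under alternatives chosen after seeing the data, the median was 0.79 with cells as the scale, 0.58 over the 4 regions in at least 10% of cells, 2.38 with thinned cells and 0.53 to 1.70 with a run left out.

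The 2 runs of each time-point carry title suffixes 1 and 2. Runs with the same suffix did not deviate together (correlation -0.01 over all regions). Most regions hold few counts per run, so a value near 0 cannot show whether these runs share more than a number. A fit with the suffix as a replicate block called 0 members, at a median of 0.46.

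Among the 26 regions named by rule, signs of small log2 changes turned in 21 cases over 9 regions. With cells as the scale these were Ndufa2 -0.29, Ndufv3 -0.19, Uqcrh -0.43, Cox8a -0.30 and Ndufaf3 -0.21. In regions in at least 10% of cells they were Ndufa2 -0.16, Uqcrh -0.23 and Cox8a -0.17, and with thinned cells Ndufv3 -0.16, Cox7c 0.18 and Ndufa4 0.39. Uqcrq turned to 0.16 as detected or not. With a run left out in turn, Ndufa2 ranged from -0.23 to 0.52, Uqcrq from -0.89 to 0.33, Uqcrh from -0.43 to 0.41, Cox7c from -0.53 to 0.027, Cox8a from -0.49 to 0.58, Ndufaf8 from -0.90 to 0.13 and Ndufaf3 from -0.13 to 0.76. None of these values passed the test. Counts per run limit all region-level results: 79 members hold under 30 counts in every run.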
